A study of Homo sapiens with 12 samples.

Results

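Transcripts of 48 lysosome genes were followed in HuH-7 cells exposed to SLMP53-2. They comprise soluble lysosomal enzymes, lysosomal membrane proteins, subunits of the proton pump, progranulin and the transcription factors TFEB and TFE3. A gene was included when a gene probe of the array carried its symbol, or an older or newer symbol of the same gene. All 48 genes had a probe, among 29123 gene names on the array, and all 48 passed the filter on low signals, as did 24168 of the gene names. The question was whether NEU1, singled out from earlier results of these data, changed alone or whether the set moved with it.

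HuH-7 is a human hepatocellular carcinoma cell line. In every group, the DMSO controls included, the cells carried the p53 mutation Y220C. The cells received the solvent DMSO, SLMP53-2 at 28 µM (2 times the IC50) or SLMP53-2 at 42 µM (3 times the IC50) for 24 h, and RNA from 4 biological replicates per group was hybridized to 12 one-color arrays on 5 slides. Part of the sample labels give 48 µM for the higher dose, which is called 42 µM here. Because a single cell line was used, the values describe that line.

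Lysosomes are acidic compartments in which hydrolases degrade proteins, glycans and lipids. TFEB and TFE3 are basic helix-loop-helix transcription factors that are held in the cytoplasm when mTORC1 phosphorylates them at the lysosomal surface and that otherwise bind an E-box-containing motif, the CLEAR element, in front of many lysosome genes. NEU1, the lysosomal sialidase, removes terminal sialic acids and is stable only in a complex with cathepsin A (CTSA), which also holds the beta-galactosidase GLB1.

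Because the CLEAR element lies in front of many lysosome genes, the promoters were read first, although the 48 genes were not chosen by it. RefSeq windows on GRCh38.p14 that cover 250 bases before and 50 bases after a transcription start were found for 33 of the 48 genes. The E-box CACGTG is its own reverse complement, and it lay in the windows of 13 of these genes. Counted over windows, it was present in 29.2% of those of the 48 genes and in 7.26% of all 35116 windows of the same length. The extension TCACGTG, searched on both strands, was present in 27.1% against 3.71%, and the palindrome TCACGTGA in 16.7% against 0.98%. These 3 patterns overlap, since each longer pattern contains the shorter. The element TGATGNAA of the C/EBP-ATF factors, searched on both strands, was in none of the 48 windows of the lysosome genes and in 3.62% of all windows. A match is a description of the letters, and the starts in use in HuH-7 cells were not measured. The 250 bases before the start are given for 5 genes, 5′ to 3′ on the strand of the gene, with every CACGTG in capitals. NEU1 (chr6:31862822-31863071, minus strand), CTSA (chr20:45891085-45891334, plus strand), DPP7 (chr9:137114734-137114983, minus strand) and CTSL1 (chr9:87725869-87726118, plus strand) were chosen because these genes rose at 42 µM, and MCOLN1 (chr19:7522374-7522623, plus strand) because it holds 2 copies of the palindrome and did not pass the test.
NEU1: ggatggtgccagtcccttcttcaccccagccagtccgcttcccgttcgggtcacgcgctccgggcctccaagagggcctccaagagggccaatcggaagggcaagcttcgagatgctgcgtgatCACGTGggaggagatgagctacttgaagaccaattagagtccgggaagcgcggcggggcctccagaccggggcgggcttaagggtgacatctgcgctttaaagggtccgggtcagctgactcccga
CTSA: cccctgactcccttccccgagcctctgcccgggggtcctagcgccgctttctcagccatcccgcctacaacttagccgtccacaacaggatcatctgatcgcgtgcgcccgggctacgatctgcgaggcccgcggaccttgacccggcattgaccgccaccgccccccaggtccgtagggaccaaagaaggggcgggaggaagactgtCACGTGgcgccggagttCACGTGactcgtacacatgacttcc
DPP7: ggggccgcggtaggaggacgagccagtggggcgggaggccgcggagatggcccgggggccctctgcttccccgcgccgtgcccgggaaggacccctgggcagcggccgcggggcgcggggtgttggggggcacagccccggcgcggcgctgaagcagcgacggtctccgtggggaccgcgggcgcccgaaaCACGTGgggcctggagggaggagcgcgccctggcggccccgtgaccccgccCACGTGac
CTSL1: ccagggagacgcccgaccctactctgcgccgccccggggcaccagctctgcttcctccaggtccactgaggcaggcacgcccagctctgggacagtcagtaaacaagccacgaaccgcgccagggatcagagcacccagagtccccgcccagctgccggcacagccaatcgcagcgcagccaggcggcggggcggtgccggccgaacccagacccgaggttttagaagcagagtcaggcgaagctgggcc
MCOLN1: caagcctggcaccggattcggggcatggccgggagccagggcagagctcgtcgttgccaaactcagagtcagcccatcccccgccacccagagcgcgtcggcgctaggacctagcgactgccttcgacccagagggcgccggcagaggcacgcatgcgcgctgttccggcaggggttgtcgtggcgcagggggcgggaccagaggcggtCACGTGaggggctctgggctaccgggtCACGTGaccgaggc

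The single E-box of NEU1 begins 126 bases before the start. In CTSA 2 E-boxes begin 42 and 25 bases before it, in DPP7 they begin 59 and 8 bases before it, and in MCOLN1 41 and 14 bases before it. The CTSL1 window held none. At 42 µM the median log2 fold change was 0.37 over the 13 genes with an E-box and 0.29 over the 20 genes without, with ranges from -0.29 to 2.11 and from -0.55 to 1.25. The ranges of the groups with and without an E-box overlapped widely. The median of the 15 genes with no window was 0.43. By the test described below, 3 of the 13 genes, 1 of the 20 and 2 of the 15 rose at 42 µM, against 1.41% of all probes. A link between the motif and the change was not tested.

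Levels are log2 intensities after background correction and quantile normalization, so that a difference of 1 is a factor of 2, and levels of different probes are not comparable. Between 65% and 85% of gene spots were well above background on each array, no gene spot was saturated, and 46 of the 48 genes were well above background on every array. Of 10 hepatocyte markers, 9 were well above background on all arrays, and the log2 of their summed level was between 17.62 and 17.85 on all 12 arrays. Of 8 macrophage markers, a cell type rich in lysosomes, 7 were measurable, the leukocyte marker PTPRC was not detected on any array, and the summed level lay between 10.08 and 10.47 for DMSO, between 9.80 and 10.60 for 28 µM and between 9.59 and 10.01 for 42 µM. The brightest macrophage marker, LYZ, had a mean of 9.17 under DMSO and 7.99 at 42 µM. All its 42 µM arrays lay below DMSO, but it did not pass the test. The fibroblast markers summed to 11.05 to 11.31 and the endothelial markers to 8.48 to 8.82 over all arrays. Before any result, 28 µM replicate 4 has to be set apart. The stress response genes ASNS and CHAC1, which the other treated arrays held at 14.84 to 15.40 and 11.42 to 12.45, were at 12.10 and 8.99 there, within the DMSO ranges of 11.79 to 12.41 and 8.63 to 9.54. Values at 28 µM are therefore given with and without that array, and the reason for its levels was not tested. The array was set apart by its response to treatment, so p-values without it depend on that choice and can be too small.

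At 42 µM, 6 of the 48 genes rose against DMSO and 0 fell, where a call needed an adjusted p below 0.05 in limma together with a change of 0.6 or more on the log2 scale. The 6 were NEU1, the ceramidase gene ASAH1, the beta-mannosidase gene MANBA, the peptidase gene DPP7, CTSA and the cathepsin L gene CTSL1. With the slide as a fixed block, or without DMSO replicate 2 or 42 µM replicate 2, 0 of the 48 genes were called, and with the slide as a random block 8 were. Over all 33467 tested probes, 1.41% were called higher and 1.23% lower in the model with all arrays and no block. All probes include dim ones and several of a gene, whereas each lysosome gene counts once, by its brightest tested probe. The shares are therefore not of like sets. The shares of all probes with a block or without those arrays are not given, so those counts cannot be set beside the whole array. The change extended below the limits of the call: 38 of the 48 genes had a positive log2 fold change, or 79.2%, against 47.5% of all probes. The median was 0.36 against -0.01, and quantile normalization largely fixes the median of all probes. At 17 of the 48 genes all 4 arrays at 42 µM lay above all 4 DMSO arrays, and at 1 gene, GLA, all lay below, whereas 5.83% and 6.49% of all probes did so. NEU1 had the largest increase of the 48 at both doses, and 22 of the 33467 probes, or 0.0657%, had a larger one at 42 µM. The next members, NPC2 and ASAH1, rose by less (log2 fold changes of 1.25, not called, and 1.21).

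**Figure D1:**
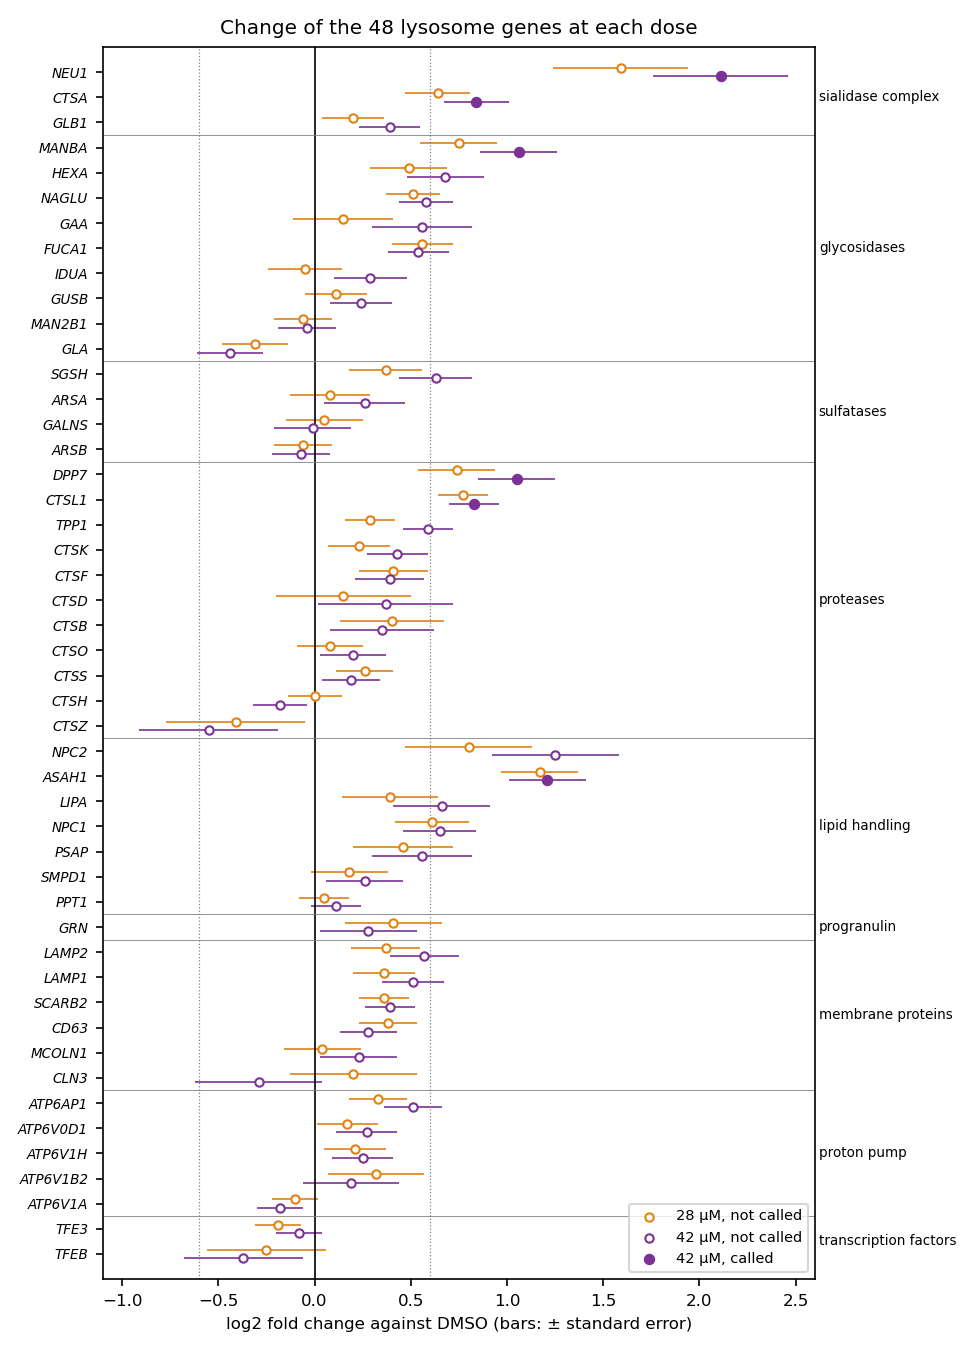
Log2 fold change against DMSO (horizontal axis) of each of the 48 lysosome genes, grouped by role, at 28 µM (orange) and 42 µM (purple), with bars of ± 1 standard error from the model. Filled points passed the test, open points did not, and dotted lines mark the limit of 0.6 in both directions. NEU1 lies farthest to the right at 2.11, most other genes lie between 0 and 1.25, and the transcription factors lie left of 0.

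The sialidase complex showed the largest single change and an unequal one among its 3 genes. NEU1 (probe on chromosome 6, 31827146 to 31827205 of hg19) was at 11.53, 11.32, 11.17 and 11.23 on the DMSO arrays, at 13.28, 13.60, 13.30 and 11.43 at 28 µM, and at 13.27, 13.53, 13.41 and 13.48 at 42 µM. All 42 µM arrays and the first 3 arrays at 28 µM were far above DMSO, and replicate 4 at 28 µM was within the DMSO range. NEU1 thus rose 4.32-fold at 42 µM (log2 fold change 2.11, SE 0.35, adjusted p = 0.0131).

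CTSA, the protective partner of NEU1 (probe on chromosome 20, 44527241 to 44527300 of hg19), was at 13.20, 12.92, 13.12 and 13.04 under DMSO, at 13.50, 13.98, 14.05 and 13.33 at 28 µM, and at 13.67, 14.09, 14.04 and 13.83 at 42 µM. On this probe no treated array overlapped the DMSO arrays, and at the higher dose CTSA rose 1.79-fold (log2 fold change 0.84, SE 0.17, adjusted p = 0.0192). GLB1, the beta-galactosidase of the complex, lay between 13.21 and 13.36 on DMSO arrays, between 13.19 and 13.93 on 28 µM arrays and between 13.48 and 13.96 on 42 µM arrays. Its 42 µM arrays were all above DMSO, by a change of 0.39 on the log2 scale (SE 0.16) that did not pass the test (adjusted p = 0.245).

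Among the 9 glycosidases, which cleave sugars from glycoproteins and glycolipids, 1 rose and none fell at 42 µM, 7 of 9 had a positive log2 fold change, and their median was 0.54. MANBA, which trims the last mannose of N-glycans (probe on chromosome 4, 103553220 to 103553279 of hg19), was at 8.77, 8.63, 9.06 and 8.90 under DMSO, at 9.52, 9.85, 9.89 and 9.09 at 28 µM, and at 9.67, 10.25, 10.12 and 9.54 at 42 µM. The treated arrays were all above DMSO, replicate 4 at 28 µM by the least, and the change at 42 µM was 2.08-fold (log2 fold change 1.06, SE 0.20, adjusted p = 0.0167). HEXA, the alpha subunit of beta-hexosaminidase, stood 0.68 above DMSO on the log2 scale without passing (SE 0.20, adjusted p = 0.0954), its 42 µM replicate 1 at 10.52 lying within the DMSO range of 10.07 to 10.58. GAA, the acid alpha-glucosidase that degrades glycogen, stood 0.56 above DMSO without passing (SE 0.26, adjusted p = 0.309), although its 4 arrays at 42 µM were above DMSO. NAGLU, a heparan sulfate glycosidase named here after its values were seen, passed the adjusted p (0.0473) but not the limit of size, with a log2 fold change of 0.58. GLA, the alpha-galactosidase deficient in Fabry disease, went the other way: its arrays were at 12.72 to 13.28 under DMSO and at 12.25 to 12.71 at 42 µM, without overlap, and the log2 change of -0.44 (SE 0.17) did not pass (adjusted p = 0.225). The other 4 glycosidases, FUCA1, IDUA, GUSB and MAN2B1, ran from -0.04 to 0.54 with no call. None of the 4 sulfatases, which remove sulfate groups from glycosaminoglycans and lipids, passed, and their log2 fold changes ran from -0.07 to 0.63.

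Of the 11 proteases 2 rose and none fell, and 9 had a positive value, with a median of 0.37. CTSL1, a cysteine protease (probe on chromosome 9, 90345326 to 90345385 of hg19), was at 11.59, 11.58, 11.72 and 11.39 under DMSO, at 12.23, 12.61, 12.39 and 12.15 at 28 µM, and at 12.32, 12.60, 12.37 and 12.32 at 42 µM. Every treated array was above every DMSO array, 28 µM replicate 4 included, and the change at 42 µM was 1.78-fold (log2 fold change 0.83, SE 0.13, adjusted p = 0.0112). DPP7, a dipeptidyl peptidase, was at 9.82 to 10.23 under DMSO, at 10.43, 10.95, 11.10 and 10.62 at 28 µM, and at 10.54, 11.56, 11.21 and 11.04 at 42 µM. It rose 2.07-fold at 42 µM, and no treated array overlapped the DMSO arrays (log2 fold change 1.05, SE 0.20, adjusted p = 0.018). TPP1, a tripeptidyl peptidase, was just under the limit of size (log2 fold change 0.59, SE 0.13, adjusted p = 0.0258), and all its 42 µM arrays were above DMSO. The major aspartic protease CTSD and the cysteine protease CTSB did not pass, at 0.37 (SE 0.35, adjusted p = 0.718) and 0.35 (SE 0.27, adjusted p = 0.633). Both varied more within a group than between groups: CTSD spanned 8.61 to 9.74 under DMSO and 8.69 to 10.11 at 42 µM. CTSZ, a carboxypeptidase, had the most negative value of the 48, -0.55 (SE 0.36, adjusted p = 0.536), with 7.69 to 8.75 under DMSO and 7.18 to 8.50 at 42 µM. The other 5 cathepsins, CTSK, CTSF, CTSO, CTSS and CTSH, ran from -0.18 to 0.43 with no call.

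All 7 genes of lipid breakdown and export had a positive value at 42 µM, with a median of 0.65, and 1 passed the test. ASAH1, the acid ceramidase, was at 8.11, 8.41, 8.72 and 8.48 under DMSO, at 9.77, 10.07, 9.59 and 8.97 at 28 µM, and at 9.54, 9.83, 9.55 and 9.66 at 42 µM. No treated array overlapped the DMSO arrays, and ASAH1 rose 2.32-fold at 42 µM (log2 fold change 1.21, SE 0.20, adjusted p = 0.0131). NPC2, the soluble protein that hands cholesterol to the membrane protein NPC1, was at 12.82, 12.58, 12.11 and 11.96 under DMSO, at 13.67, 13.63, 13.47 and 11.90 at 28 µM, and at 13.86, 13.63, 13.55 and 13.42 at 42 µM. Every 42 µM array was above DMSO, but 28 µM replicate 4 was below all of them, and the log2 change of 1.25 (SE 0.33) at 42 µM missed the threshold (adjusted p = 0.062). The spread of a probe was shared by the 3 groups, so that the 28 µM arrays entered this test. In the same model without 28 µM replicate 4, NPC2 passed at 42 µM (adjusted p = 0.00194), 7 of the 48 genes were called higher and 2% of all probes were. NPC1, LIPA (the acid lipase) and PSAP (the precursor of the saposins) had log2 fold changes of 0.65 (SE 0.19, adjusted p = 0.0818), 0.66 (SE 0.25, adjusted p = 0.205) and 0.56 (SE 0.26, adjusted p = 0.325). The sphingomyelinase gene SMPD1 and the thioesterase gene PPT1 were at 0.26 and 0.11. GRN, which encodes progranulin, was at 13.46 to 14.35 under DMSO and at 13.46 to 14.74 at 42 µM, so the groups overlapped (log2 fold change 0.28, SE 0.25, adjusted p = 0.699).

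The 6 membrane protein genes and the 5 proton pump genes held no call at 42 µM, and their medians were 0.34 and 0.25. LAMP1, the most used marker of the lysosomal membrane, was at 13.99 to 14.24 under DMSO and at 14.39 to 14.79 at 42 µM. The groups did not overlap, yet the log2 change of 0.51 (SE 0.16) missed the threshold (adjusted p = 0.119). LAMP2, the related receptor of chaperone-mediated autophagy, and SCARB2, the carrier of glucocerebrosidase, likewise lay above DMSO on every 42 µM array, at 0.57 (SE 0.18, adjusted p = 0.12) and 0.39 (SE 0.13, adjusted p = 0.14). The tetraspanin CD63 and the calcium channel MCOLN1 overlapped with DMSO, at 0.28 (SE 0.15) and 0.23 (SE 0.20). CLN3, a membrane protein of uncertain function, was at -0.29 (SE 0.33), with 42 µM replicate 2 at 8.57 and the other treated arrays at 10.04 to 10.60. In the proton pump, ATP6AP1, an accessory subunit named after its values were seen, was above DMSO on every 42 µM array (0.51, adjusted p = 0.0945), and ATP6V1H, a regulatory subunit of the cytosolic sector, was at 0.25 (SE 0.16, adjusted p = 0.515). The other 3 pump genes ran from -0.18 to 0.27.

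The transcripts of the factors themselves showed no call. TFEB was at 9.20, 7.87, 7.68 and 7.99 under DMSO, at 8.27, 7.48, 8.22 and 7.76 at 28 µM, and at 7.79, 7.72, 8.37 and 7.37 at 42 µM. DMSO replicate 1 was the highest and the groups overlapped (log2 fold change -0.37 at 42 µM, SE 0.31, adjusted p = 0.661). TFE3 lay between 9.47 and 9.63 on DMSO arrays, between 9.21 and 9.63 on 28 µM arrays and between 9.28 and 9.54 on 42 µM arrays, a change of -0.08 on the log2 scale (SE 0.12, adjusted p = 0.834). The arrays measure transcripts and not the place or phosphorylation of these proteins.

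**Figure D2:**
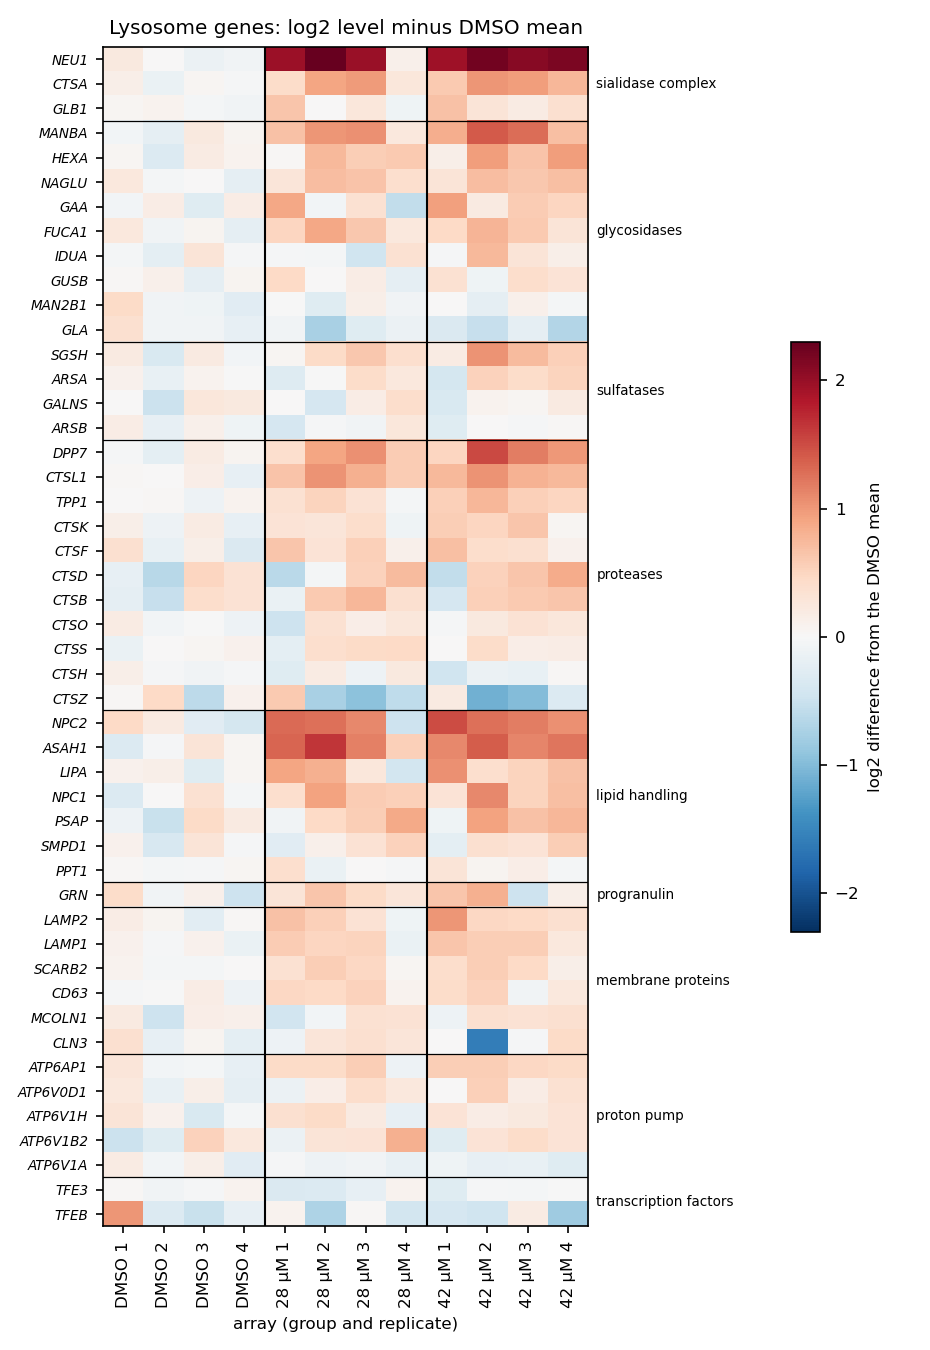
Log2 level of each of the 48 lysosome genes (rows, by role) minus its DMSO mean, on each of the 12 arrays (columns, by group and replicate), from blue (lower) to red (higher). NEU1 is the darkest row, and the column of 28 µM replicate 4 is pale for NEU1 and NPC2 but not for CTSL1.

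Taken array by array, the median of the set was higher on every treated array than on every DMSO array, and NEU1 was not. The median of the 48 genes against their DMSO means was 0.09, -0.07, 0.07 and -0.03 on the DMSO arrays, 0.31, 0.37, 0.41 and 0.24 at 28 µM, and 0.29, 0.51, 0.42 and 0.35 at 42 µM. The lowest treated array, 28 µM replicate 4, was still above the highest DMSO array. The median of all probes stayed between -0.07 and 0.01 on the 12 arrays. Quantile normalization largely fixes that median, as it gives every array the same distribution. NEU1 differed from its DMSO mean by 1.97, 2.29, 1.99 and 0.12 at 28 µM and by 1.96, 2.22, 2.10 and 2.16 at 42 µM. On 28 µM replicate 4, NEU1 was therefore close to DMSO although 31 of the 48 genes were above their DMSO mean. On the DMSO arrays, 13 to 35 of the genes were above it, and on the treated arrays 30 to 41 were. The count on 28 µM replicates 1, 2 and 4 and on 42 µM replicate 1 was thus within the DMSO range. Each DMSO array is itself part of the DMSO mean, which draws the DMSO values toward that mean.

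**Figure D3:**
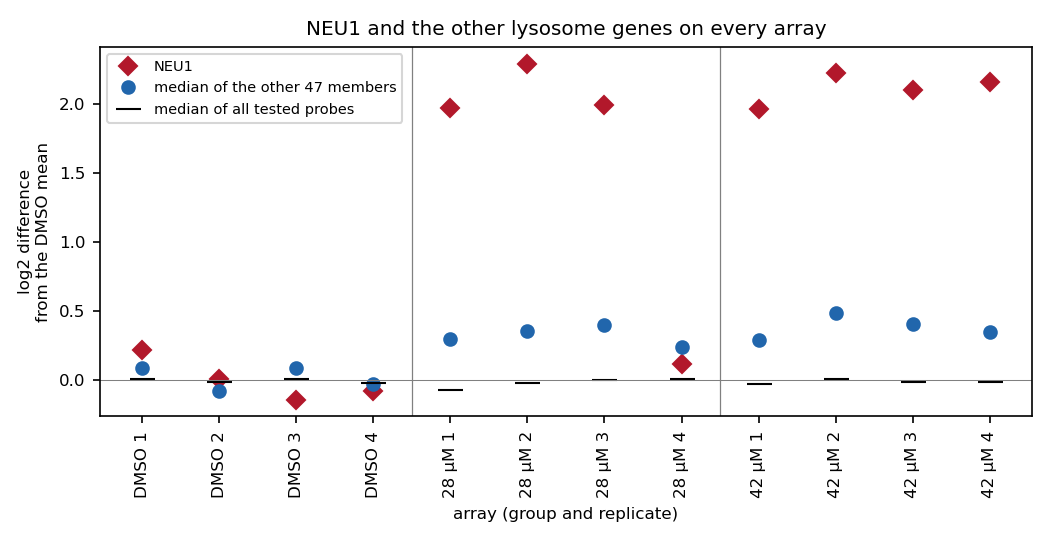
Log2 difference from the DMSO mean (vertical axis) on each of the 12 arrays for NEU1 (red), for the median of the other 47 lysosome genes (blue) and for the median of all tested probes (black bars). NEU1 is between 1.96 and 2.29 on 7 of the 8 treated arrays and at 0.12 on 28 µM replicate 4, where the median of the other genes is 0.24.

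The slides each held 2 or 3 arrays of different groups, and the comparison was repeated within them. On slides 2, 4 and 5, which held arrays of both groups, NEU1 was higher at 42 µM than under DMSO by 2.05, 2.36 and 2.10, and the median of the 48 genes by 0.28, 0.43 and 0.53. On slides 1, 2 and 4, NEU1 was higher at 28 µM by 1.77, 2.05 and 0.26 and the median by 0.28, 0.33 and 0.14, slide 4 being that of replicate 4. With the slide as a fixed block in limma, the log2 fold change of NEU1 at 42 µM was 2.09 but its adjusted p was 0.056. Without DMSO replicate 2 or 42 µM replicate 2, its adjusted p-values were 0.0536 and 0.0591 at log2 fold changes of 2.11 and 2.08.

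At 28 µM none of the 48 genes was called in limma, and 0% of all probes were. The study, in contrast, reports differentially expressed genes at this dose with the same limit on the adjusted p. The reason for this difference was not tested. The smallest adjusted p was 0.115, for ASAH1 (log2 fold change 1.17, SE 0.20) and for CTSL1 (0.77, SE 0.13), and that of NEU1 was 0.175 (1.59, SE 0.35). At an unadjusted p under 0.05, 17 of the 48 genes passed, or 35.4%, against 11% of all probes, and 8 of them were higher by at least 0.6: NEU1, ASAH1, NPC2, CTSL1, MANBA, DPP7, CTSA and NPC1. The log2 fold change was positive for 40 of the 48 genes, with a median of 0.27. All 4 arrays were above DMSO for 7 genes and below it for 0, against 2.69% and 2.68% of all probes. Without replicate 4, 7 of the 48 genes were called higher and 0 lower, when 1.31% and 0.84% of all probes were called. These were NEU1 (2.08, SE 0.13, adjusted p = 1.48e-05), ASAH1 (1.38, adjusted p = 0.00133), NPC2 (1.22, adjusted p = 0.00716), MANBA (0.91, adjusted p = 0.0236), CTSL1 (0.84, adjusted p = 0.00709), CTSA (0.77, adjusted p = 0.0238) and the fucosidase gene FUCA1 (0.67, adjusted p = 0.0431). Their adjusted p-values depend on the choice of that array by its response. The median of the 48 genes was then 0.34. By role, the median at 28 µM was 0.64 for the sialidase complex, 0.46 for lipid handling, 0.36 for membrane proteins, 0.26 for proteases, 0.21 for the proton pump, 0.15 for glycosidases, 0.07 for sulfatases and -0.22 for the transcription factors. Without replicate 4 the glycosidases moved most, to 0.39, and the lipid genes reached 0.64, and the sulfatases and the transcription factors were at -0.02 and -0.24.

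Between the doses, no gene of the 48 was called in limma and 0% of all probes were. The adjusted p was 1 for every one of the 48 genes, and 1 of them, or 2.08%, had an unadjusted p under 0.05, against 2.44% of all probes. NEU1 was higher at 42 µM by 0.52 (SE 0.35) with all arrays and by 0.03 (SE 0.13) without 28 µM replicate 4. The median difference of the 48 genes was 0.09, and 0.03 without that array. A difference between the doses was therefore not detected at this number of arrays, which does not show that the doses act alike.

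Further genes of the same compartment were read from lists of 141 genes in all, to see which of its functions moved. Among 23 regulators and targets of TFEB and TFE3, 20 were measurable and 5 rose at 42 µM, against 1.41% of all probes called higher. They were RRAGD (1.51, SE 0.37, adjusted p = 0.0435) and RRAGC (1.36, SE 0.29, adjusted p = 0.0258), which encode Rag GTPases that recruit mTORC1 to the lysosome, FLCN (1.17, SE 0.23, adjusted p = 0.0192) and FNIP1 (1.09, SE 0.25, adjusted p = 0.0357), whose products form the activator of RagC and RagD, and the autophagy receptor gene SQSTM1 (1.39, SE 0.18, adjusted p = 0.0112). The dimmer probes of FLCN gave 0.85 and 0.45 and that of FNIP1 gave 0.18, none of them called. For MAP1LC3B, not called by its brightest probe (0.88), a dimmer probe passed (0.96, adjusted p = 0.0168). The Rag partner RRAGA (-0.19, SE 0.11) and the TFEB relative MITF (-0.14, SE 0.12) were not called, and neither was GPNMB (-0.39, SE 0.15), a target used as a readout of these factors. The 7 stress response genes read as a sign of exposure all rose, by 1.81 to 3.01. SQSTM1 is also a target of other stress-responsive factors, and which factor acted on the genes of this list was not tested.

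The remaining lists differed in calls and medians at 42 µM, and whether function accounts for this was not tested. The lysosome genes read first did not show the same order. Their membrane proteins held no call (median 0.34), whereas their proteases held 2 (median 0.37). Among 18 further membrane and transport proteins 4 rose, the chloride exchanger CLCN7 (0.84, adjusted p = 0.0453), the cystine exporter CTNS (0.76, adjusted p = 0.0209), GLMP (0.84, adjusted p = 0.0166) and TMEM192 (0.68, adjusted p = 0.0172), and the median was 0.43. Among 28 further hydrolases none rose and 1 fell, CTSL2 (-0.71, SE 0.16, adjusted p = 0.0348), the close relative of CTSL1 now named CTSV, and the median was 0.05. An unadjusted p under 0.05 in limma, in either direction, was found for 46.4% of these hydrolases. The share was 55.6% for the further membrane and transport proteins and 15.4% for all probes. None of 16 further measurable proton pump subunits was called (median 0.17). Of 10 genes of the mannose 6-phosphate route, which sorts new hydrolases to the lysosome, IGF2R, its large receptor, rose (1.27, SE 0.24, adjusted p = 0.0176), and the small receptor M6PR did not pass (0.76, SE 0.23, adjusted p = 0.093). None of the 8 other sialidases and sialic acid enzymes was called, and all lay between -0.17 and 0.12. NEU1 was thus the only sialidase gene of NEU1 to NEU4 that was called. Without 28 µM replicate 4, 5 of the TFEB and TFE3 list, 3 of the membrane and transport proteins, 1 of the 28 hydrolases and 1 of the 10 sorting genes were called higher at 28 µM, against 1.31% of all probes.

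For 16 of the 48 genes more than 1 probe was tested, and the brightest stood for the gene. The probes of CTSA gave similar values at 42 µM, 0.84 and 0.88, although only the brighter passed. On the dimmer CTSA probe both doses overlapped DMSO. Those of ASAH1 did not: the dimmer probe gave 0.24 at 42 µM and 0.28 at 28 µM, and so the rise of ASAH1 rests on 1 probe. The dimmer probes of GLB1, LAMP1, LAMP2 and ATP6AP1 overlapped DMSO at 42 µM, so the separation of these genes holds for the brightest probe only. The dimmer probes of SCARB2 and CD63 were above DMSO on every 42 µM array. The probes of MAN2B1, PPT1, CLN3, ATP6V1A and ATP6V1H differed in sign at 42 µM, all within 0.3 of 0. NEU1, MANBA, CTSL1, DPP7 and NPC2 were each measured by a single tested probe.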

How the data were processed

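RNA of HuH-7 cells, 4 biological replicates per group per the labels, was hybridized to Agilent arrays of 1 color. The authors deposited for each array the scanner output of Agilent Feature Extraction 10.7.3.1, with the mean intensity and the local background intensity of every spot, and a table of normalized log2 values. Per the methods of the study, the authors corrected the background by the Edwards method, normalized by quantiles, dropped probes not detected on most arrays of every condition and tested with limma.

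These steps were repeated here from the deposited intensities with limma 3.58.1 in R 4.3.3. Control spots and outlier spots were left out, the spots of a probe were averaged on the log2 scale, and a probe was kept when it was well above background on at least 2 arrays of a group, which left 33467 of 41000 gene probes. The result correlated with the authors' log2 values by at least 0.999 on every array. The 3 groups were fitted together over the 12 arrays with lmFit and eBayes, and tested two-sided with Benjamini-Hochberg adjustment over all tested probes. A call needed an adjusted p below 0.05 together with a change of 0.6 or more on the log2 scale. The brightest tested probe stood for a gene. The procedure was checked on simulated data with known changes. Depth does not apply to arrays, and the number of arrays limits the precision.

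The 48 genes, the further lists and the tests were chosen with earlier results of these data known. Named are NEU1 and its partners, TFEB and TFE3, every called gene, the 3 largest increases and the 3 largest decreases at each dose, and a fixed choice for each role. From the further lists every called gene is named. All other names in the text were chosen after their values were seen or only complete a list. Symbols are those of the array's design, with CTSL1 for the gene the files name CTSL. Probe positions are those of the scanner files, on hg19, and promoters those of RefSeq on GRCh38.p14. There were 28 alternatives, of which 12 left out an array. Plots were made with matplotlib 3.10.9.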

Additional observations from a re-analysis of the deposited data

Results flagged for a closer look

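For the 27 named members and the median of the 48 genes, 84 sets of 4 arrays were searched for an array far from the other 3 of its group, and 9 were found. Chance alone flags about 1 in 20 groups. At 28 µM, replicate 4 was the low array for NEU1 (11.43, the next at 13.28), NPC2 (11.9, the next at 13.47), LAMP1 (13.99, the next at 14.65) and CD63 (15.52, the next at 15.9), and it is the array on which ASNS and CHAC1 were within the DMSO range. At 42 µM, replicate 1 was low for CTSB (9.65), MCOLN1 (8.38) and TFE3 (9.28) and high for LAMP2 (10.62). Under DMSO, replicate 2 was low for MCOLN1 (8.02, the next at 8.61). The reasons were not tested.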

How the results depend on the processing

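At 42 µM the number of the 48 genes called higher was 6, and with the slide as a fixed block it was 0, with array weights 11 and with a log2 limit of 1 it was 4. Leaving out each array in turn gave 0 to 8, and the number called at 28 µM then ran from 0 to 7, the 7 without replicate 4. Shares of all probes called are given only for all arrays without a block and without 28 µM replicate 4. The other counts in this section can therefore not be set beside the whole array. The median log2 fold change of the 48 genes at 28 µM was 0.27, and 0.18 with the processed signal and 0.19 with the Edwards values when scaled to the 75th percentile. Leaving out each array in turn gave 0.23 to 0.34. At 42 µM that median kept its sign under all 28 alternatives. The log2 fold change of NEU1 ran from 1.93 to 2.19 at 42 µM and from 1.36 to 2.08 at 28 µM. With the replicate number as a block (replicate block), 8 genes were called at 42 µM, 0 at 28 µM and 0 between the doses, and the log2 fold change of NEU1 was 2.11 (adjusted p = 0.00816). The 8 were the 6 called without the block, NPC1 and NPC2. The deviations of arrays with the same number correlated by -0.46 to 0.62, not over 0.1 for every pair, and in 8 of 24 cases the closest array of another group had the same number, so the numbers were not taken to pair the samples. CTSA, called at 42 µM, was below the threshold under 9 alternatives, DPP7 under 6, MANBA and CTSL1 under 4 each, and NEU1 and ASAH1 under 3 each, with the sign kept under each of them. NPC2, not called, passed under 5. With the single array left out in turn, calls at 42 µM were lost without DMSO replicate 2 (0 called), without 42 µM replicate 2 (0 called) and without DMSO replicate 1 (3 called), those of CTSA and DPP7 without DMSO replicate 4, and that of CTSA without 42 µM replicate 3. The causes were not tested. All limits here come from 4 arrays a group.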
